A study of Homo sapiens with 19 samples.

Results

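The semaphorins, plexins and neuropilins were taken as every protein-coding gene whose symbol fits the naming scheme of these families, SEMA3A to SEMA7A, PLXNA1 to PLXND1, NRP1 and NRP2. This gave 31 genes out of 44717 listed in any file, made up of 20 semaphorins, 9 plexins and 2 neuropilins. The rule uses gene names and no measured value. All 31 were listed in all 19 samples. PLXNA4 had between 0 and 10 counts per sample and SEMA5B between 0 and 6, and neither passed the filter on low counts in any of the knockdown comparisons, so 29 members could be tested in 501Mel cells. In Hermes 3A cells SEMA3G was also too low, which left 28.

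Semaphorins are secreted or membrane-bound ligands first known for steering growing axons, and they also act on the shape, adhesion and migration of other cells, among them the neural crest cells from which melanocytes arise. Plexins are their receptors, single-pass membrane proteins whose inner part acts on small GTPases and so on the cytoskeleton. Most secreted class 3 semaphorins do not bind a plexin directly and need NRP1 or NRP2 as the ligand-binding partner, whereas the membrane-bound classes bind plexins themselves.

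RNA-seq was performed on 501Mel cells, a human melanoma line, and on Hermes 3A cells, an immortalised line of human melanocytes grown with phorbol ester, cholera toxin, stem cell factor and endothelin. Lentiviral short hairpin RNAs were directed against BRG1 (shBRG1), the ATPase of the SWI/SNF chromatin remodelling complexes that is encoded by SMARCA4, or against MITF (shMITF), the master transcription factor of the melanocyte lineage, and scramble hairpins served as controls. The 501Mel shBRG1 samples (n = 3) were set against the scramble group shSCR1 (n = 3), and the 501Mel shMITF samples (n = 2) against the scramble group shSCR2 (n = 2). In Hermes 3A cells, shBRG1 (n = 3) and shMITF (n = 3) were both set against 1 scramble group, shSCR (n = 3), so these comparisons share their controls. Every group, controls included, carries a hairpin vector, and each cell type is represented by 1 line.

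The files held between 29158502 and 78857900 counts per sample, of which the members took between 0.140% and 0.580%. SMARCA4 fell with shBRG1 in both lines (log2 fold change -2.36 in 501Mel and -2.38 in Hermes 3A). MITF fell with shMITF by 1.06 on the log2 scale in 501Mel, and its value in Hermes 3A was -0.85 (adjusted p = 0.0194 in edgeR), under the size needed for a call. The 501Mel fall of MITF was measured against shSCR2. In shSCR2 MITF (log2 fold change 0.97) and SMARCA4 (0.83) were above shSCR1, also under the size needed for a call. MITF fell also with shBRG1 in 501Mel (-1.55), as did SOX10 (-2.44), whereas in Hermes 3A shBRG1 both stayed above -1 (-0.43 and -0.40). All 7 melanocyte markers averaged above 1 CPM per kb of exon (CPM, counts per 1000000 counts of the TMM-scaled library) in all groups except DCT in the Hermes 3A knockdowns, and all 4 endothelial and all 3 immune markers were near 0 throughout. The summed level of the melanocyte markers was 7530 to 8060 in shSCR1 and 791 to 865 with shBRG1, 5200 to 5910 in shSCR2 and 2980 to 3090 with shMITF, and in Hermes 3A 16800 to 17100 with shSCR, 7980 to 8420 with shBRG1 and 7000 to 9100 with shMITF. Of the 6 fibroblast markers, LUM reached 1 in every group but shSCR1 and COL1A2 in the Hermes 3A groups. The summed fibroblast level was 0.701 to 1.02 in shSCR1, 3.2 to 3.89 after shBRG1, 2.25 to 2.64 in shSCR2 and 1.85 to 3.73 after shMITF, and in Hermes 3A 7.87 to 8.99 in the controls, 13.4 to 14.1 after shBRG1 and 10.3 to 20.2 after shMITF. Of the 4 keratinocyte markers, only KRT10 passed 1. Their part in the results was not tested.

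Some groups stand apart in their spread. The biological coefficient of variation was between 4.59% and 6% in 4 groups, but 16.9% in 501Mel shSCR2, 18.1% in 501Mel shMITF and 33.2% in Hermes 3A shMITF. The labels do not say how shSCR1 and shSCR2 differ, and 2344 of 19056 genes were called higher and 3938 lower in shSCR2 than in shSCR1, so every 501Mel result below rests on its own scramble group. A gene was called where the adjusted p of edgeR's quasi-likelihood test was under 0.05 and the log2 fold change lay beyond 1 in either direction. The p-values measure the spread between the samples of a group, and nothing in the labels says that these came from separate cultures. In bulk RNA, fewer expressing cells and less RNA per cell cannot be told apart.

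Levels were first compared between members, as CPM per kb of exon over all 19 samples, called the per-kb scale below. PLXNC1, the receptor of SEMA7A, had the highest level of all members in every scramble group. It reached 169 ± 8.8 (SD, n = 3) in shSCR1, 79.3 ± 3.9 (SD, n = 2) in shSCR2 and 251 ± 9.4 (SD, n = 3) in Hermes 3A shSCR. In shSCR1 it was followed by SEMA5A at 86.4 ± 2.2, NRP2 at 66.9 ± 2.2 and SEMA4C at 49.3 ± 4. In Hermes 3A shSCR the next were SEMA6A at 101 ± 0.96, PLXNB2 at 72.6 ± 4.9 and NRP2 at 48.1 ± 0.46, whereas SEMA5A at 45.7 ± 1 and SEMA4C at 43.6 ± 3.1 came next to each other and overlapped in their samples. Of the 2 neuropilins, NRP2 was abundant and NRP1 was near 0, with 0.0108 ± 0.005 in shSCR1, 0.0173 ± 0.0077 in shSCR2 and 0.0179 ± 0.01 in Hermes 3A shSCR. 7 members were at 10 or more in all 3 scramble groups and 8 were under 1 in all 3.

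**Figure D1:**
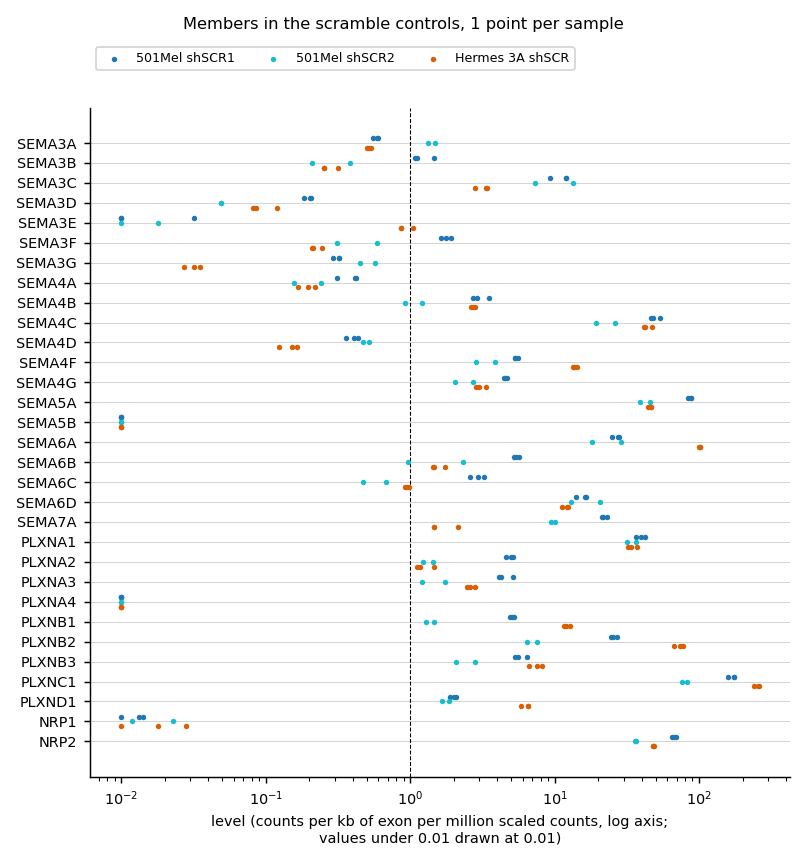
Level of each of the 31 members in the scramble controls, in CPM per kb of exon on a log axis, with 1 point per sample and the near-0 limit of 1 as a dashed line. PLXNC1 lies furthest to the right in all 3 groups, and NRP1, PLXNA4 and SEMA5B lie near the left edge.

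The summed level of the members was 560 in shSCR1 and 136 with shBRG1 in 501Mel. In Hermes 3A it was 667 with shSCR, 488 with shBRG1 and 328 with shMITF. In 501Mel shSCR2 and shMITF it was 303 and 285.

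The first question was how loss of BRG1 in melanoma cells changes these genes. In 501Mel cells 15 of the 29 members tested fell with shBRG1 (51.7%, against 17.4% of all genes tested) and 2 rose (6.9%, against 21.7% of all genes). The median log2 fold change of the members was -1.17, and that of all genes 0.0526. 7 of the 8 tested plexins fell, and all 8 had a negative value, with PLXNA1 at the smallest change. NRP2 fell and NRP1 rose. Of the class 3 semaphorins 2 fell and 1 rose out of 7, and of classes 4 to 7 5 fell and none rose out of 12. The 12 members without a call had values between -0.87 and 1.49. Scaling by library size alone moved the median of all genes from 0.053 to 0.40 and gave 5 members higher and 14 lower.

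With shMITF in 501Mel, 5 of 29 members rose (17.2%, against 5.59% of all genes) and 3 fell (10.3%, against 3.4%). The members' median was 0.41, and that of all genes 0.0101. Those that rose were NRP1, PLXNB1, PLXNB2, SEMA3B and SEMA3D, and those that fell were PLXNA2, SEMA6A and SEMA7A. Against a control made of shSCR1 and shSCR2, 2 members rose and 2 fell. Calls over all genes dropped as well in that fit, to 327 higher and 248 lower of 19569. Against shSCR2 alone they were 990 and 602 of 17701.

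In Hermes 3A cells, shBRG1 raised 5 of 28 members (17.9%, against 5.78% of all genes) and lowered 5 (17.9%, against 3.47%). The median of the members was 0.08, and that of all genes 0.00933. Only 1 plexin, PLXNC1, was among those called. With all 3 Hermes 3A groups in 1 fit, 3 rose and 4 fell, and 722 and 446 of all 17652 genes did so. With library sizes alone 5 rose and 3 fell, and 1231 and 467 of all 17222 genes. The main fit had 996 and 598 of 17222.

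In the same cells shMITF raised 2 of 28 members (7.14%, against 3.35% of all genes) and lowered 6 (21.4%, against 4.04%). The members' median was -0.17, against 0.045 for all genes. Leaving out any of the 3 shSCR samples, or shMITF replicate 3, lowered the count of rises to 1. Over all genes the rises numbered 236 to 271 without an shSCR sample and 493 without shMITF replicate 3, against 553 in the main fit.

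Over the 4 comparisons 21 members were called at least once, and 8 of those tested were never called. NRP1 was the only member called in all 4, and it was higher in each. 5 members were called lower in 3 of the 4, namely PLXNC1, SEMA5A, SEMA6A, SEMA6D and SEMA7A. SEMA3B was higher in 3 of them. Only PLXNB1 and PLXNB2 were called in both directions.

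**Figure D2:**
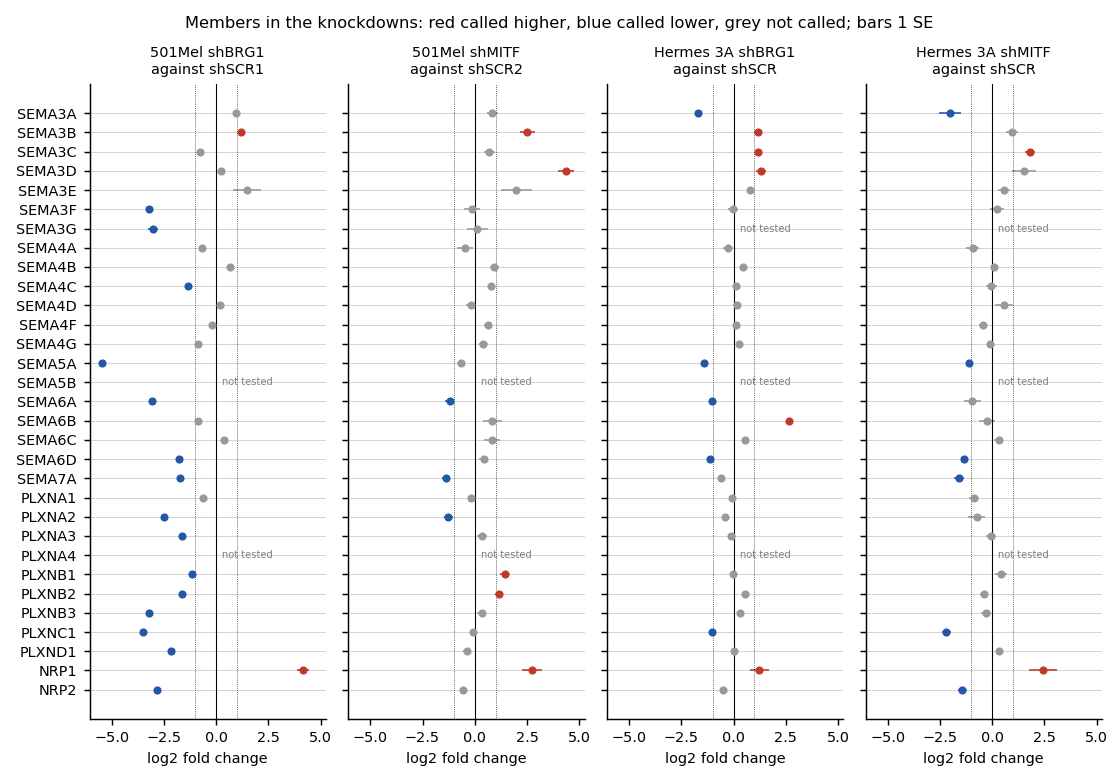
Log2 fold change of each member in the 4 knockdown comparisons (points, bars 1 SE), red where called higher, blue where called lower and grey where not called, with dotted lines at -1 and 1. In 501Mel shBRG1 15 members lie left of -1 in blue, and NRP1 is red in all 4 panels.

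The secreted class 3 ligands did not move as a group. SEMA3A, a chemorepellent that acts through NRP1 and class A plexins, had 4.49, 4.39 and 4.22 CPM (here scaled within each comparison) in Hermes 3A shSCR and 1.42, 1.29 and 1.37 CPM with shBRG1. All 3 knockdown samples lay below all controls (log2 fold change -1.68, SE 0.15, adjusted p = 9.8e-11). With shMITF in the same cells its CPM was 1.42, 1.54 and 0.2, against 4.46, 4.41 and 4.19 in shSCR. It lay lower in all 3 samples and lowest in replicate 3 (log2 fold change -2.02, SE 0.54, adjusted p = 0.0367), but without any 1 of the shSCR samples the adjusted p was between 0.101 and 0.12. In 501Mel cells SEMA3A had 6.41, 6.02 and 6.57 CPM with shSCR1 and 12, 11.5 and 12.7 CPM with shBRG1. These values went the other way without reaching a call (log2 fold change 0.93, adjusted p = 3.9e-10 in edgeR), and with shMITF the value was 0.84 (adjusted p = 0.062). Against the pooled scrambles the shBRG1 value was 0.31 (adjusted p = 0.513) and the shMITF value 1.45 (adjusted p = 0.135). On the per-kb scale shBRG1 (1.16 ± 0.059) lay above shSCR1 (0.579 ± 0.026) but below shSCR2 (1.41 ± 0.12).

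SEMA3B, a gene of the chromosome 3p region often lost in tumours, rose in 3 comparisons. In 501Mel its CPM was 9.82, 7.56 and 7.29 with shSCR1 and 18.6, 19.8 and 18.9 with shBRG1. No sample of either group overlapped (log2 fold change 1.21, SE 0.089, adjusted p = 1.2e-11). Against shSCR2 the 501Mel shMITF samples had 10.7 and 8.16 CPM and the controls 2.2 and 1.18. Both shMITF samples were higher (log2 fold change 2.51, SE 0.35, adjusted p = 0.00213), and with the scramble groups pooled the log2 fold change was 0.95 (adjusted p = 0.448). In Hermes 3A shBRG1 it had 3.28, 3.08 and 3.11 CPM against 1.31, 1.65 and 1.31 CPM in shSCR. Here too every knockdown sample was higher (log2 fold change 1.16, SE 0.16, adjusted p = 5.6e-07).

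SEMA3C, a class 3 ligand that can promote as well as repel migration, had 18.7, 15.9 and 19 CPM in Hermes 3A shSCR and 40.7, 37.5 and 41.2 CPM with shBRG1. It was higher in all 3 samples (log2 fold change 1.15, SE 0.069, adjusted p = 2.1e-14). With shMITF it had 45.5, 53.5 and 87.6 CPM against 18.6, 16 and 18.8. The 3 shMITF samples were all higher, replicate 3 the most (log2 fold change 1.80, SE 0.24, adjusted p = 0.00271). In 501Mel shBRG1 its value was -0.75, with no call.

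SEMA3D, another neuropilin-dependent ligand, was low in all groups. In 501Mel shSCR2 it had 0.388 and 0.384 CPM and with shMITF 6.2 and 9.69 CPM. Both shMITF samples were higher, and this was the largest rise in log2 fold change among the members called in the 4 comparisons (log2 fold change 4.36, SE 0.37, adjusted p = 2.8e-04). Against shSCR1 and shSCR2 pooled the value was 2.85 (adjusted p = 0.0473). Hermes 3A cells had 0.592, 0.879 and 0.614 CPM with shSCR and 1.56, 2.01 and 1.52 CPM with shBRG1. The groups did not overlap (log2 fold change 1.31, SE 0.23, adjusted p = 1.6e-05), but in the fit with all 3 Hermes 3A groups the adjusted p was 0.097.

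SEMA3F and SEMA3G, ligands of NRP2, fell in 501Mel shBRG1. SEMA3F had 10.8, 10 and 9.28 CPM in shSCR1 and 1.11, 1.21 and 0.862 CPM with shBRG1. The 3 knockdown samples lay far below the controls (log2 fold change -3.23, SE 0.13, adjusted p = 6.8e-17). SEMA3G had 1.86, 1.87 and 1.71 CPM with shSCR1 and 0.17, 0.27 and 0.221 CPM with shBRG1. It was lower in every knockdown sample (log2 fold change -3.03, SE 0.24, adjusted p = 3.6e-11) at 9 to 14 counts per sample. SEMA3E, the ligand of PLXND1, was called in no knockdown.

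Among the membrane-bound ligands, SEMA5A changed most. SEMA5A is a transmembrane semaphorin with thrombospondin repeats. In 501Mel it had 1181, 1244 and 1236 CPM with shSCR1 and 28.1, 24.9 and 28.8 CPM with shBRG1. The fall of 44.8-fold in all 3 samples was the largest of any member (log2 fold change -5.48, SE 0.063, adjusted p = 1.2e-25). Hermes 3A cells had 482, 510 and 500 CPM with shSCR and 183, 190 and 190 CPM with shBRG1. The groups did not overlap (log2 fold change -1.41, SE 0.04, adjusted p = 1.9e-21). With shMITF in Hermes 3A it had 274, 181 and 238 CPM against 479, 512 and 497. All 3 samples were lower (log2 fold change -1.10, SE 0.17, adjusted p = 0.00491), and without shMITF replicate 2 the value was -0.95, inside the limit for a call.

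SEMA6A, which signals through class A plexins, fell in 3 comparisons. In 501Mel it had 316, 354 and 357 CPM with shSCR1 and 40.6, 38 and 41.6 CPM with shBRG1. The shBRG1 samples lay well under the controls (log2 fold change -3.09, SE 0.057, adjusted p = 7.8e-23). With shSCR2 it had 197 and 309 CPM and with shMITF 116 and 102 CPM. Both shMITF samples were lower (log2 fold change -1.21, SE 0.21, adjusted p = 0.00859), but the log2 fold change was -0.86 without shSCR2 replicate 2, and the adjusted p was 0.0683 without shMITF replicate 2. In Hermes 3A it had 998, 999 and 983 CPM with shSCR and 498, 467 and 491 CPM with shBRG1. All 3 were lower (log2 fold change -1.03, SE 0.042, adjusted p = 3.7e-18), just past the limit for a call, which it missed with library sizes alone (-0.93) and with all Hermes 3A groups in 1 fit (adjusted p = 0.0596).

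SEMA6D, a ligand of PLXNA1, had 140, 162 and 166 CPM in 501Mel shSCR1 and 46.6, 42.5 and 48.1 CPM with shBRG1. It was lower in every knockdown sample (log2 fold change -1.77, SE 0.061, adjusted p = 6.6e-18). Its Hermes 3A values were 92.8, 87.4 and 95.1 CPM with shSCR and 42, 43.3 and 41.9 CPM with shBRG1. Again no samples overlapped (log2 fold change -1.11, SE 0.046, adjusted p = 6.0e-18). With shMITF it had 31.6, 41 and 35.6 CPM against 92.3, 87.7 and 94.4. The 3 shMITF samples were all lower (log2 fold change -1.34, SE 0.13, adjusted p = 7.6e-04), whereas in 501Mel shMITF the value was 0.43 with no call.

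SEMA6B differed between the lines with shSCR1 as the 501Mel control. It had 5.79, 7.01 and 5.65 CPM in Hermes 3A shSCR and 40.6, 36.7 and 39.8 CPM with shBRG1. This 6.38-fold rise was seen in all 3 samples and was the largest of any member in Hermes 3A cells (log2 fold change 2.67, SE 0.079, adjusted p = 3.2e-21). In 501Mel shBRG1 its value was -0.87, with no call. On the per-kb scale it was at 5.43 ± 0.22 in shSCR1, 3.11 ± 0.074 with shBRG1 and 1.63 ± 0.96 in shSCR2. The direction in 501Mel thus depended on the scramble group.

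SEMA7A, a GPI-anchored ligand that binds PLXNC1 and integrins, fell in 3 comparisons. In 501Mel it had 101, 95.2 and 96 CPM with shSCR1 and 28, 31.9 and 27.3 CPM with shBRG1. No samples overlapped (log2 fold change -1.75, SE 0.058, adjusted p = 3.1e-18). With shMITF it had 16 and 11.9 CPM against 37.8 and 35 in shSCR2. Both shMITF samples were lower (log2 fold change -1.39, SE 0.18, adjusted p = 0.0016), and against the pooled scrambles the value was -2.21 (adjusted p = 0.0441). In Hermes 3A shMITF it had 1.6, 1.98 and 2.13 CPM against 4.91, 7.37 and 4.98 in shSCR. All 3 were lower (log2 fold change -1.59, SE 0.26, adjusted p = 0.00569), at a level where SEMA7A was already low. SEMA4C, a ligand of PLXNB2, had 386, 344 and 334 CPM in 501Mel shSCR1 and 129, 146 and 141 CPM with shBRG1. It was lower in all 3 samples (log2 fold change -1.36, SE 0.057, adjusted p = 2.6e-16), and with both scramble groups as the control the value was -0.96. The other class 4 members, SEMA4A, SEMA4B, SEMA4D, SEMA4F and SEMA4G, and SEMA6C, were called in no knockdown comparison.

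Of the receptors, PLXNC1 fell in 3 comparisons. In 501Mel it had 1825, 2006 and 2014 CPM with shSCR1 and 183, 151 and 180 CPM with shBRG1. The fall was 11.4-fold and the groups lay far apart (log2 fold change -3.51, SE 0.068, adjusted p = 2.0e-22). In Hermes 3A it had 2255, 2154 and 2286 CPM with shSCR and 1131, 1071 and 1085 CPM with shBRG1. All 3 samples were lower (log2 fold change -1.03, SE 0.042, adjusted p = 6.4e-18), and with library sizes alone the value was -0.92. With shMITF in Hermes 3A it had 377, 597 and 490 CPM against 2241, 2161 and 2270. The 3 shMITF samples were all lower (log2 fold change -2.19, SE 0.2, adjusted p = 6.5e-04). In 501Mel shMITF, by contrast, it had 741 and 684 CPM against 749 and 788 in shSCR2. These groups lay close together (log2 fold change -0.11, adjusted p = 0.579 in edgeR), and against the pooled scrambles the value was -0.87 (adjusted p = 0.259).

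Of the class A plexins, co-receptors of the neuropilins, PLXNA2 and PLXNA3 fell in 501Mel. PLXNA2 had 73.9, 83.3 and 80.7 CPM with shSCR1 and 15.1, 14.2 and 13.1 CPM with shBRG1. All knockdown samples were lower (log2 fold change -2.48, SE 0.063, adjusted p = 2.1e-20). With shMITF it had 6.07 and 8.89 CPM against 16.6 and 19.2 in shSCR2. Both were lower (log2 fold change -1.26, SE 0.23, adjusted p = 0.00643), and with pooled scrambles the value was -2.67 (adjusted p = 0.0901). PLXNA3 had 70.3, 56.4 and 57.9 CPM with shSCR1 and 20.7, 20.6 and 19.3 CPM with shBRG1. It too was lower in each sample (log2 fold change -1.61, SE 0.071, adjusted p = 6.9e-16), with an adjusted p of 0.0714 against the pooled scrambles. PLXNA1 was not called in any knockdown.

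PLXNB1 and PLXNB2, the receptors of SEMA4D and SEMA4C, were called lower with shBRG1 and higher with shMITF in 501Mel. PLXNB1 had 55.7, 59.2 and 57.3 CPM in shSCR1 and 25.3, 25.8 and 25.2 CPM with shBRG1. The shBRG1 samples were lower (log2 fold change -1.17, SE 0.053, adjusted p = 1.0e-15), with a value of -0.83 on library sizes alone. Against shSCR2, at 12.4 and 13.9 CPM, the shMITF samples had 28.4 and 42.8 CPM. Both were higher (log2 fold change 1.43, SE 0.21, adjusted p = 0.00272). PLXNB2 had 228, 215 and 210 CPM in shSCR1 and 70.7, 74.6 and 65 CPM with shBRG1. It was lower in all 3 samples (log2 fold change -1.63, SE 0.053, adjusted p = 2.3e-18). With shSCR2 it had 54.1 and 45.7 CPM and with shMITF 91.7 and 130 CPM. Both shMITF samples were higher (log2 fold change 1.15, SE 0.18, adjusted p = 0.00394), and without shMITF replicate 2 the value was 0.87.

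The controls behind these opposite calls differed. On the scale shared by all samples, PLXNB2 was at 25.7 ± 1.2 in shSCR1, 8.66 ± 0.61 with shBRG1, 7.01 ± 0.75 in shSCR2 and 15.1 ± 3.3 with shMITF (SD, per-kb scale). The shMITF samples thus lay between the scramble groups. PLXNB1 was at 5.05 ± 0.15, 2.34 ± 0.032, 1.38 ± 0.13 and 3.61 ± 0.94 in the same order. With both scramble groups pooled, PLXNB1 was at 0.04 and PLXNB2 at -0.23 with shMITF, and -0.63 and -1.09 with shBRG1, and none of the 4 was called. In Hermes 3A neither gene was called in a knockdown.

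PLXNB3 and PLXND1 fell with shBRG1 in 501Mel. PLXNB3 had 52.2, 45.6 and 43.8 CPM with shSCR1 and 5.15, 5.2 and 4.9 CPM with shBRG1. The knockdown samples were all far lower (log2 fold change -3.21, SE 0.077, adjusted p = 8.1e-21). A share of 20.4% of its exon bases is also exon of SRPK3 on the same strand, so reads there could be of either gene. PLXND1, the SEMA3E receptor, had 21.3, 22.9 and 23.7 CPM with shSCR1 and 5.51, 4.78 and 4.71 CPM with shBRG1. It was lower in all 3 samples (log2 fold change -2.17, SE 0.082, adjusted p = 3.2e-17).

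The 2 neuropilins went in opposite directions. NRP2 had 1043, 1118 and 1093 CPM in 501Mel shSCR1 and 161, 137 and 157 CPM with shBRG1. The fall of 7.15-fold held in every sample (log2 fold change -2.84, SE 0.059, adjusted p = 6.8e-22). Its Hermes 3A values were 591, 614 and 590 CPM with shSCR and 147, 283 and 235 CPM with shMITF. All 3 shMITF samples were lower (log2 fold change -1.43, SE 0.23, adjusted p = 0.00525).

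NRP1 rose in all 4 comparisons from a level near 0, so its folds rest on few reads. In 501Mel it had 8, 8 and 2 counts with shSCR1 and 156, 167 and 101 with shBRG1. In CPM this was 0.191, 0.178 and 0.0685 against 2.94, 3.22 and 2.23, with every knockdown sample higher (log2 fold change 4.16, SE 0.27, adjusted p = 1.2e-12). With shSCR2 it had 8 and 10 counts and with shMITF 65 and 50. The CPM was 0.259 and 0.133 against 1.42 and 0.995, again without overlap (log2 fold change 2.73, SE 0.49, adjusted p = 0.00563). Hermes 3A cells had 9, 11 and 4 counts with shSCR and 25, 25 and 19 with shBRG1. The CPM was 0.184, 0.293 and 0.0819 against 0.487, 0.393 and 0.402, higher in each sample (log2 fold change 1.24, SE 0.45, adjusted p = 0.0194). That call was lost without shSCR replicate 1 (adjusted p = 0.0535), shSCR replicate 3 (0.145) or shBRG1 replicate 1 (0.0729), and with all Hermes 3A groups in 1 fit (0.186). Hermes 3A shMITF had 70, 15 and 20 counts. In CPM this was 1.81, 0.437 and 0.667 against 0.182, 0.294 and 0.0813, with replicate 1 the highest (log2 fold change 2.41, SE 0.67, adjusted p = 0.0407). Without any 1 of the shSCR samples, or without shMITF replicate 1 or 3, the adjusted p was between 0.0634 and 0.167, and without shMITF replicate 1 the log2 fold change was 1.58. Even at its highest NRP1 stayed under 1 on the per-kb scale.

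**Figure D3:**
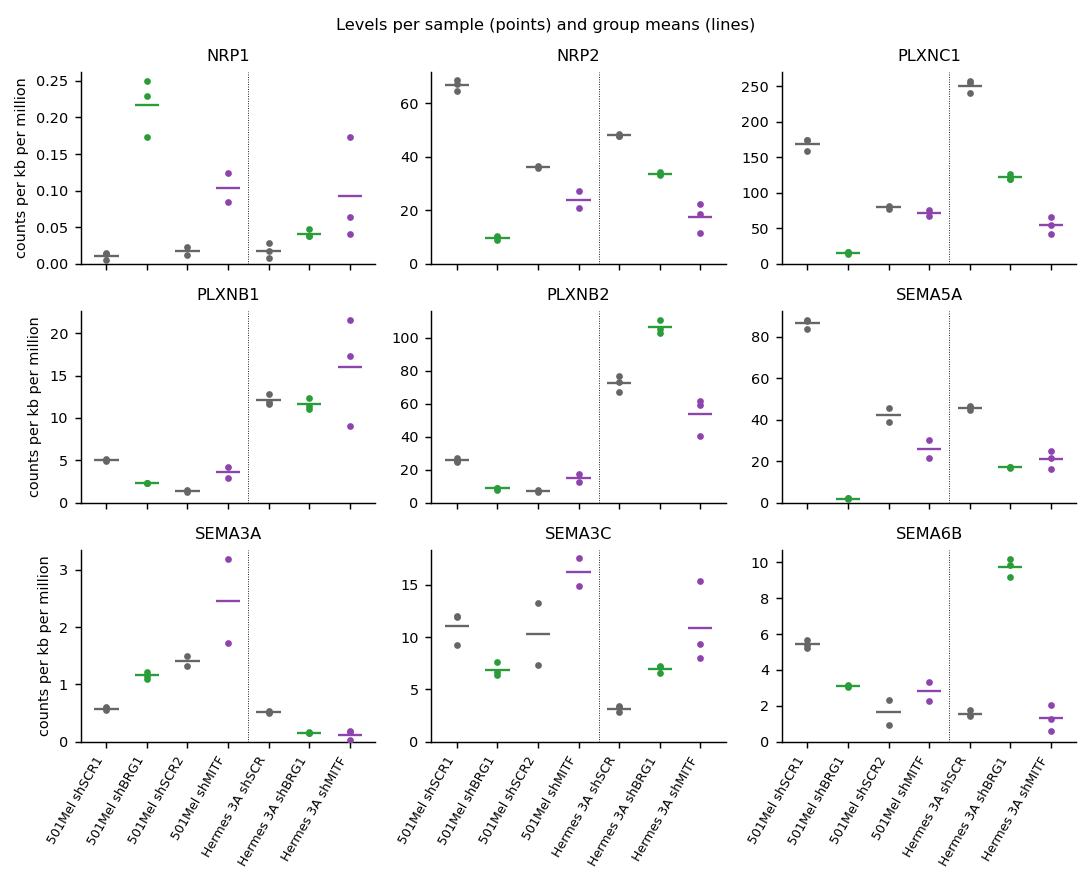
Levels of 9 members in CPM per kb of exon (linear axes from 0), with 1 point per sample and a line at each group mean, 501Mel left of the dotted line and Hermes 3A right of it. PLXNB1 and PLXNB2 were at 5.05 and 25.7 in shSCR1 but at 1.38 and 7.01 in shSCR2, and SEMA6B is highest in Hermes 3A shBRG1.

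Stretches of promoter sequence are shown for 5 members called lower in at least 2 comparisons, 4 picked after the search because a motif was found and SEMA5A because it fell most, to let the letters recognised by lineage factors be seen. They are from RefSeq on GRCh38.p14, read 5′ to 3′ on the gene's strand, and positions are counted back from the annotated start. A motif found is in capitals. The windows run from 250 bases before to 50 after each start, and 27 members had at least 1 window, 48 in all. The windows were searched on both strands for CACGTG and CATGTG (E-boxes of the kind MITF binds), AACAAAG and AACAATG (of the kind SOX factors bind), TGAGTCA (AP-1) and GGAATG (TEAD).
SEMA6D, chr15:47183969-47184088, plus strand, E-box at 28 bases before the start: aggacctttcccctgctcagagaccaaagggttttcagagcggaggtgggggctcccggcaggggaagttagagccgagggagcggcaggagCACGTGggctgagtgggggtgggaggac
NRP2, chr2:205682442-205682471, plus strand, E-box at 47 bases before the start: ggctctgacatcCACATGctgctcggcctg
PLXNC1, chr12:94148327-94148446, plus strand, SOX-type match at 189 bases before the start: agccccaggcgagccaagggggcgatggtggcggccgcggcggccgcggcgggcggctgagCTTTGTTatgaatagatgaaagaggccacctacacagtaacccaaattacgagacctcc
PLXNA2, chr1:208244465-208244584, minus strand, SOX-type match at 148 bases before the start: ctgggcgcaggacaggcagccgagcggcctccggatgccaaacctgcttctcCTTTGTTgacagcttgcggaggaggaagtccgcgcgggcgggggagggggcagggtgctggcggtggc
SEMA5A, chr5:9546076-9546195, minus strand, no match: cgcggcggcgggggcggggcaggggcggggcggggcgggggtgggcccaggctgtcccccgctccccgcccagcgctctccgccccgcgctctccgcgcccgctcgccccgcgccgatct

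The CACGTG motif was found in windows of 3 members, SEMA3E, SEMA4D and SEMA6D, or 6.25% of the 48 windows, against 7.26% of all 35116 windows. CATGTG or its reverse complement CACATG was found in NRP2, PLXNB2, SEMA3E, SEMA3F, SEMA3G and SEMA4A, 14.6% of the members' windows against 11.1% of all. AACAAAG or CTTTGTT was found in PLXNA2, PLXNB1, PLXNC1 and SEMA3E, 8.33% against 5.2%. AACAATG was found only in SEMA6C (2.08% against 3.33%), TGAGTCA in no member (0% against 4.95%) and GGAATG in 5 members (14.6% against 14%). The window of SEMA5A, the gene that fell most, held none of the 6, and neither did those of SEMA7A, which fell in 3 comparisons and is not shown. SEMA6A had no window. These are letter matches in short windows, and binding was not measured in the samples used here.

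The next comparison asked whether a knockdown acted alike in both lines, with the difference between the 501Mel and the Hermes 3A effect tested directly. For shBRG1, 18 of 29 members were lower in 501Mel relative to Hermes 3A (62.1%, against 14.9% of all genes) and 2 were higher (6.9%, against 12%). The difference was largest in SEMA5A (log2 fold change -4.11, SE 0.07, adjusted p = 7.1e-34), although it fell in both lines. SEMA6B (log2 fold change -3.57, SE 0.1, adjusted p = 4.1e-27) and PLXNB3 (log2 fold change -3.54, SE 0.1, adjusted p = 7.2e-27) followed. All tested plexins but PLXNA1 were among the 18. The 501Mel effect here rests on shSCR1 alone, and the difference was not refitted with the other scramble group. On the per-kb scale PLXNA3, PLXNB1 and PLXNB2 were at 1.55, 2.34 and 8.66 with shBRG1 in 501Mel. These means were no lower than those in shSCR2 (1.47, 1.38 and 7.01). The same held for SEMA3D (0.246 with shBRG1 and 0.0488 in shSCR2), SEMA4G (2.65 and 2.39) and SEMA6B (3.11 and 1.63). The remaining members of the 18 had lower means with shBRG1 than in shSCR2. The 2 higher were NRP1 (log2 fold change 2.88, SE 0.57, adjusted p = 3.3e-05) and SEMA3A (log2 fold change 2.59, SE 0.16, adjusted p = 3.2e-17). SEMA3A fell in Hermes 3A and had a positive value without a call in 501Mel, which was 0.31 against the pooled scrambles. With library sizes alone 14 members were lower and 2 higher, while the split of all called genes moved from 44.7% to 61.8% higher. SEMA3B (0.02) rose in both lines, and a difference between them was not called.

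For shMITF, 5 of 29 members were higher in 501Mel relative to Hermes 3A (17.2%, against 2% of all genes) and 0 were lower (0%, against 0.643%), in edgeR and also in DESeq2. At an unadjusted p under 0.05, 2 members were lower in edgeR. The 5 were PLXNB2 (log2 fold change 1.55, SE 0.28, adjusted p = 0.012), PLXNC1 (log2 fold change 2.07, SE 0.26, adjusted p = 0.00178), SEMA3A (log2 fold change 2.85, SE 0.69, adjusted p = 0.0486), SEMA4F (log2 fold change 1.08, SE 0.26, adjusted p = 0.0417) and SEMA6D (log2 fold change 1.76, SE 0.27, adjusted p = 0.0048). PLXNC1 and SEMA6D fell in Hermes 3A and were not called in 501Mel. The 501Mel control was shSCR2 alone, and this difference was not refitted with shSCR1. PLXNC1 was at 71.6 with shMITF, 79.3 in shSCR2 and 169 in shSCR1 (per-kb scale). Against the pooled scrambles its 501Mel shMITF value was -0.87 (adjusted p = 0.259 in edgeR), so its difference between the lines may depend on the control. The same may hold for PLXNB2, at 15.1 with shMITF, 7.01 in shSCR2 and 25.7 in shSCR1, with a pooled value of -0.23. SEMA4F was at 5.06, 3.37 and 5.42 in the same order, which bears on its difference as well. The means of SEMA3A and SEMA6D with shMITF lay above those of both scramble groups. The calls of PLXNB2, SEMA3A and SEMA4F were unstable when single samples were left out. Leaving out shSCR2 or shMITF replicate 1 or 2 of 501Mel, or any Hermes 3A shSCR sample, left 2 or 3 calls.

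**Figure D4:**
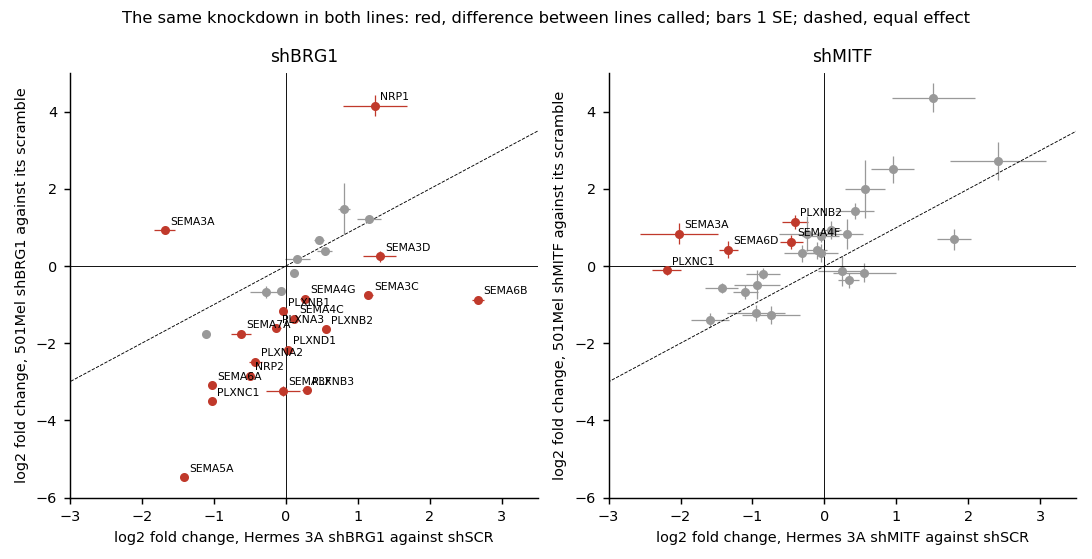
Log2 fold change of the members in Hermes 3A (x axis) and 501Mel (y axis) for shBRG1 and for shMITF, with bars of 1 SE and a dashed line of equal effect, red where the difference between the lines was called. Most red points of the shBRG1 panel lie under the dashed line, while SEMA3A and NRP1 lie above it.

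The scramble groups of 501Mel were then compared with each other, since each serves only 1 knockdown. 15 of 27 members were lower in shSCR2 than in shSCR1 (55.6%, against 20.7% of all genes) and 1 was higher (3.7%, against 12.3%). Those lower were PLXNA2, PLXNA3, PLXNB1, PLXNB2, PLXNB3, PLXNC1, SEMA3B, SEMA3D, SEMA3F, SEMA4B, SEMA4C, SEMA5A, SEMA6B, SEMA6C and SEMA7A, with values from -2.37 in SEMA6C to -1.01 in SEMA5A. SEMA3A was higher (log2 fold change 1.29, SE 0.12, adjusted p = 1.8e-05). SEMA5A lost its call without shSCR2 replicate 2 (-0.89), and PLXNC1 and SEMA4C (-0.88) without shSCR2 replicate 1. For SEMA5A and PLXNC1 this gap (-1.01 and -1.08) was smaller than the fall with shBRG1 (-5.48 and -3.51), whereas for PLXNB1 (-1.85) and PLXNB2 (-1.86) it was larger. In PLXNA3 the gap (-1.62) was as large as the fall (-1.61), and in SEMA3B the gap (-2.10) was larger than the rise with shBRG1 (1.21). With both scramble groups as the control, 11 members fell and 3 rose with shBRG1, where 14.6% of all genes fell and 20.6% rose.

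Between the lines, with the mean of the 501Mel scramble groups set against Hermes 3A shSCR, 7 of 29 members were higher in 501Mel (24.1%, against 20.1% of all genes) and 8 lower (27.6%, against 18%). Of the plexins, 5 of 8 were lower in the melanoma cells, PLXNB1 (-2.20), PLXNB2 (-2.44), PLXNB3 (at the limit for a call, and not called by DESeq2), PLXNC1 (-1.12) and PLXND1 (-1.76), and PLXNA2 was higher (1.03). SEMA7A was higher (log2 fold change 3.13, SE 0.11, adjusted p = 1.4e-12), at 22 ± 0.82 in shSCR1 and 9.76 ± 0.42 in shSCR2 against 1.69 ± 0.39 in Hermes 3A on the per-kb scale. SEMA3E was lower in 501Mel (log2 fold change -6.12, SE 0.37, adjusted p = 2.3e-08) and SEMA3G higher (log2 fold change 3.64, SE 0.26, adjusted p = 1.7e-09). Both were under 1 on the per-kb scale in all 3 scramble groups. SEMA3E was at 0.0132 in shSCR1, 0.0089 in shSCR2 and 0.927 in Hermes 3A, and SEMA3G at 0.31, 0.513 and 0.0315. SEMA3B, SEMA3C, SEMA3F and SEMA4D were also higher in 501Mel, and SEMA4F and SEMA6A lower. PLXNA2, SEMA3B and SEMA3F were not called against shSCR2 alone (0.07, 0.06 and 0.97), nor PLXNB3 and PLXNC1 against shSCR1 alone (-0.37 and -0.58). The lines differ also in donor and medium, which cannot be told apart from the tumour state.

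A list of 29 plexin signalling effectors was read from the same fits. In 501Mel shBRG1, 5 of 29 fell and 1 rose, against 17.4% and 21.7% of all genes, with a median of -0.35. The share that fell was thus near that of all genes. Those that fell were MICAL1 (-2.15) and MICAL2 (-1.42), oxidases that act on actin downstream of plexins, ARHGAP35 (-1.75), a RhoGAP that plexins bind, FARP2 (-1.65), a Rac exchange factor used by SEMA3A, and the kinase ROCK1 (-1.59). FES, a tyrosine kinase activated through plexins, rose (3.35). In 501Mel shMITF, MICAL2 (1.85) and RRAS (1.09) rose and FARP2 (-1.35) fell out of 29, against 5.59% and 3.4% of all genes. FES fell in Hermes 3A with shBRG1 (-1.17) and with shMITF (-1.51), and DPYSL3, a collapsin response mediator, fell with shMITF (-1.12), while none of the 28 tested rose there. Of all genes, 3.47% fell with shBRG1 and 4.04% with shMITF in these cells. The medians in the other comparisons were 0.04, 0.01 and 0.00.

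A list of 12 partner receptors, surface proteins known to pair with these families, was read in the same way. In 501Mel shBRG1 6 of 11 tested fell and none rose, against 17.4% and 21.7% of all genes, with a median of -1.71. The 3 that averaged at least 100 counts per sample in the higher group were CHL1 (-3.37), an adhesion molecule that binds NRP1, PTK7 (-2.03), a plexin A partner, and MET (-1.87), the scatter factor receptor that pairs with class B plexins. In 501Mel shMITF MET fell (-1.29) and ITGA1 (3.06), NRCAM (2.22) and CHL1 (1.24) rose out of 9 tested, where 3.4% of all genes fell and 5.59% rose. In Hermes 3A shBRG1 2 of 11 rose (5.78% of all genes) and none fell (3.47%), NRCAM (1.63) and FLT4, the latter under 100 counts. In Hermes 3A shMITF MET fell (-1.73), 1 of 11 against 4.04% of all genes, and 3 of 11 rose (3.35% of all genes), namely ITGA1 (1.57), a subunit of the integrin that SEMA7A binds, NRCAM (1.20) and FLT1, the last under 100 counts. MET fell in 3 of the 4 comparisons.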

How the data were processed

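The deposited files held raw counts of reads per Ensembl gene, which the authors made from reads called with CASAVA 1.8 and aligned with TopHat 1.4.1 and Bowtie 0.12.7 to hg19, per the labels. The counting program and its strand setting are not given in the sources used here, so reads of overlapping antisense genes cannot be told apart. Symbols and exon lengths came from GENCODE 29 (GRCh38), and 40913 of 44717 identifiers had a symbol. The counts were fitted as deposited with edgeR 4.0.16 in R 4.3.3 (TMM, filterByExpr, robust quasi-likelihood fits), each comparison on its own groups, with Benjamini-Hochberg adjustment over all genes tested. The limits for a call were 0.05 for the adjusted p and 1 for the size of the log2 change. The script was tested on simulated data. DESeq2 1.42.0, other scalings, filters, control groups and leave-one-out fits were alternatives. Members called in a knockdown were given in full, and list genes with at least 100 counts were named, at most 6 per direction. Members, lists and rules were chosen with earlier results of these data known. Same-numbered samples correlated between -0.12 and 0.258 and were not treated as pairs. Counts per sample limit the precision of low members such as NRP1. One further set of marker genes is not reported here.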

Additional observations from a re-analysis of the deposited data

Results flagged for a closer look

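The members below were picked out because the effect of a hairpin differed between 501Mel and Hermes 3A in the test of that difference (edgeR, adjusted p under 0.05), given as the 501Mel minus the Hermes 3A log2 fold change. The shBRG1 differences used shSCR1 as the only 501Mel control and were not refitted with shSCR2. In 501Mel shBRG1 the per-kb means of PLXNA3, PLXNB1, PLXNB2, SEMA3D, SEMA4G and SEMA6B were no lower than in shSCR2. That of SEMA3A, whose difference was positive, lay below shSCR2. For shBRG1 the plexins were at -2.09 (PLXNA2), -1.50 (PLXNA3), -1.16 (PLXNB1), -2.22 (PLXNB2), -3.54 (PLXNB3), -2.51 (PLXNC1) and -2.24 (PLXND1). The neuropilins were at 2.88 (NRP1) and -2.37 (NRP2). The secreted ligands were at 2.59 (SEMA3A), -1.92 (SEMA3C), -1.10 (SEMA3D), -3.22 (SEMA3F) and -2.26 (SEMA3G), and the membrane-bound ones at -1.51 (SEMA4C), -1.15 (SEMA4G), -4.11 (SEMA5A), -2.09 (SEMA6A), -3.57 (SEMA6B) and -1.17 (SEMA7A). The call of SEMA3G was lost without Hermes 3A shBRG1 replicate 2 (-1.65, adjusted p = 0.118), and those of PLXNB1 (-0.89), SEMA3D (-0.82), SEMA4G (-0.88) and SEMA7A (-0.89) with library sizes alone. SEMA4G shares 27.4% of its exon bases with other genes. For shMITF, with shSCR2 as the only 501Mel control, the values were 1.55 (PLXNB2), 2.07 (PLXNC1), 2.85 (SEMA3A), 1.08 (SEMA4F) and 1.76 (SEMA6D). In 501Mel shMITF the per-kb means of PLXNB2, PLXNC1 and SEMA4F lay below those in shSCR1, and those of SEMA3A and SEMA6D above. No group had enough samples for a test of single outlying samples.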

How the results depend on the processing

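Of 242 counts of called members recomputed under other choices, 217 stayed within 1.5 times the value reported and 25 did not, and of 1596 recomputed log2 fold changes of single members 1508 kept both direction and side of the limit, 81 lost a call, 6 gained one and 1 turned direction, PLXNB2 with shMITF in 501Mel at -0.23 against the pooled scramble groups. Without the log2 limit, the calls higher were 5 for 501Mel shBRG1, 8 for 501Mel shMITF (5 lower), 13 for Hermes 3A shBRG1 (8 lower), 12 between the lines and 2 for shSCR2 against shSCR1. Over all genes, 8442 of 20514 were then higher for 501Mel shBRG1 and 1775 of 17701 for 501Mel shMITF (1862 lower). For Hermes 3A shBRG1 4862 of 17222 were higher (4934 lower), between the lines 7700 of 20354 and for shSCR2 against shSCR1 6720 of 19056. Scaling by library size alone gave 5 higher for 501Mel shBRG1 (6192 of all 20514 genes) and 3 lower for Hermes 3A shBRG1 (467 of 17222). No filter on low counts gave 4 higher for 501Mel shBRG1 (6009 of 39882). Pooled scramble groups gave 2 higher for 501Mel shMITF (327 of all 19569 genes), and the joint Hermes 3A fit gave 3 higher for shBRG1 (722 of 17652). A minimum of 10 counts in every sample left 1 higher for Hermes 3A shMITF and 1 for the difference between lines with shBRG1, since fewer members are tested. Over all genes 462 of 14439 and 1709 of 14077 were higher there. Leaving out 1 sample at a time gave 1 to 2 higher for Hermes 3A shMITF and 2 to 6 for the difference between lines with shMITF. Where 1 sample was left in an arm, it was assumed to vary like the others. Library size scaling moved the median log2 fold change of all genes from 0.053 to 0.40 in 501Mel shBRG1, from 0.081 to 0.28 between the lines, from -0.027 to 0.25 in the shBRG1 difference and from -0.035 to -0.17 between the scramble groups, and it moved the share of called genes that were higher from 55.5% to 72.1% in 501Mel shBRG1 and from 45.3% to 56% in Hermes 3A shMITF. The sample numbers do not pair the samples, and fits with a replicate block gave 3 higher and 15 lower for 501Mel shBRG1, 5 and 3 for 501Mel shMITF, 5 and 5 for Hermes 3A shBRG1, 2 and 7 for Hermes 3A shMITF, and 6 and 0 for the shMITF difference, each within 1.5 times the count without it. Over all genes the block fits gave 4448 higher and 3566 lower of 20514 for 501Mel shBRG1, and 1127 and 730 of 17701 for 501Mel shMITF. For Hermes 3A they gave 1014 and 599 of 17222 with shBRG1 and 488 and 725 of 16508 with shMITF. The shMITF difference had 423 and 154 of 19284. Apart from the settings named, the cause of the moves under other choices was not tested. NRP1, SEMA3D, SEMA3E and SEMA3G had few counts in at least 1 line, and the Hermes 3A shMITF samples had a coefficient of variation of 33.2%.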
